A study of Mus musculus with 15 samples.

Results

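The genes described here assemble triglyceride in fat and make the glycerol 3-phosphate it is built on. They are Aqp7, Gpd1, Pck1, Gpam, Agpat2, Agpat3, Lpin1, Dgat1, Dgat2 and Mogat1, taken by gene symbol from the deposited expression tables. All 10 were found among the 23995 symbols listed, and all 10 passed the filter on low values that left 5615 genes for testing. The genes were put together by function, with an earlier observation on the same data in mind that Gpd1 was lower with estradiol, so that fall is not independent evidence here.

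RNA was sequenced from periprostatic fat, the white fat around the prostate, of 15 male C57BL/6J mice killed at 26 weeks of age. The LFD mice (n = 5) ate a diet with 10 kcal% fat from 6 weeks of age and had no implant. The HFD placebo mice (n = 5) ate a diet with 60 kcal% fat from the same age, and a placebo pellet was implanted under the skin after 12 weeks of diet. The HFD estradiol mice (n = 5) ate the 60 kcal% fat diet and received a pellet with 0.25 mg of estradiol, made to release the hormone for 60 days. Tissue was taken 8 weeks after the pellets were placed. The LFD mice thus differ from the placebo mice in implant as well as in diet. The numbers 1 to 5 name different mice in each group.

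A fat cell stores energy as triglyceride, which is 3 fatty acids on a glycerol backbone. The backbone enters as glycerol 3-phosphate, which the cytosolic dehydrogenase Gpd1 makes from the triose phosphate dihydroxyacetone phosphate. That triose phosphate comes from glucose, or from pyruvate through Pck1, the route called glyceroneogenesis. Gpd1 is thus a step of both routes. Acyltransferases of the Gpat and Agpat families then add the fatty acids, a lipin removes the phosphate to give diacylglycerol, and Dgat1 or Dgat2 adds the last fatty acid. A side route starts from monoacylglycerol through Mogat1, and glycerol released when the store is broken down leaves the cell through the channel Aqp7.

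Because Pck1, Gpam and Mogat1 were the members that fell from LFD to placebo and rose from placebo to estradiol, the sequence before the start of these 3 genes is shown, 5′ to 3′ on the gene's strand. Capitals mark a motif match.
Pck1, chr2:173152823-173153047, plus strand: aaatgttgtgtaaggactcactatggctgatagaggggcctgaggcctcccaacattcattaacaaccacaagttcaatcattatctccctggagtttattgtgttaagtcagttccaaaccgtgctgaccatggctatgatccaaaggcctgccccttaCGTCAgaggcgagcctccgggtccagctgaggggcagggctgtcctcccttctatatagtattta
Gpam, chr19:55127239-55127488, minus strand: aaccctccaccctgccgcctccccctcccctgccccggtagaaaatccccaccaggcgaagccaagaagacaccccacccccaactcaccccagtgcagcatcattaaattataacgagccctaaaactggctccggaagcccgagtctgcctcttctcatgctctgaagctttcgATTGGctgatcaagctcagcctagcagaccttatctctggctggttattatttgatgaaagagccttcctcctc
Mogat1, chr1:78510810-78510990, plus strand: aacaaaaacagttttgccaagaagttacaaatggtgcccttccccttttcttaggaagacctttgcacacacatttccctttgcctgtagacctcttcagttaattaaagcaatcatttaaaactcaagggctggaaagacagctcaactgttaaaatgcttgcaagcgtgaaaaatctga
The sequences are RefSeq's, on GRCm38.p6, and stop where the first annotated exon begins. RefSeq windows were matched for 7 of the 10 members, and none was used for Gpd1, Dgat1 and Dgat2. In the 250 bases before each start, 7 motifs were searched on both strands. They were AGGTCA, the core bound by many nuclear receptors; CGTCA, the core of a cAMP response element; CCAAT, the binding letters of NF-Y; TATAAA, the core of a TATA box; CACGTG, an E-box; the palindromic estrogen response element; and the direct repeat with 1 base between its copies. The last of these motifs and the estrogen response element are each made of 2 copies of AGGTCA and so overlap with it. Pck1 held CGTCA, with its first base at -90 from the RefSeq start, and 17.8% of all 32851 windows hold it. Gpam held CCAAT on the opposite strand, printed as ATTGG, at -74, and 33.8% of windows hold it. In Mogat1 none of the 7 was found. Of the other members, Lpin1 held AGGTCA at -74 and Aqp7 held it at -49 from its upstream start, a motif found in 14% of windows. A further RefSeq start inside Gpam was preceded by AGGTCA and CGTCA. The TATA box letters stood in 12.4% of windows, the E-box in 6.02%, the estrogen element in 0.0213% and the direct repeat in 0.0335%, and none of these was found in any member's window. The matches are a description of these letters only.

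The deposited unit was FPKM, a count of fragments divided by transcript length and by the library's total. The sum of FPKM ran from 34449 to 105910 per library, so each library was divided by 1 scaling factor, from 0.481 to 3.23, and values below are this scaled FPKM. The factor was 0.481 to 0.772 in LFD, 0.656 to 3.23 in placebo and 0.611 to 1.63 in estradiol. Read counts were not used here. The spacing of the lowest values gave an estimate of 20.6 to 222 fragments behind a level of 1 for a transcript of 2 kb. By group this was 20.6 to 40.1 in LFD, 35 to 222 in placebo and 36.7 to 96.4 in estradiol. All LFD libraries lay on sequencing lane 5 and all estradiol libraries on lane 6, with placebo mice 1 to 3 on lane 5 and 4 and 5 on lane 6. Of the 6 brown fat markers, Ucp1 stood at 34.2 in LFD mouse 2, 13.5 in placebo mouse 3 and 26.6 in placebo mouse 4, against 0 to 4.96 elsewhere, and results are also given without these 3 libraries. The summed level of 8 prostate markers was 127 in LFD mouse 5, of which Spink3 made up 125, and 0.184 to 0.753 in the placebo and estradiol groups. Differences were taken between log2(scaled FPKM + 1) values, so changes of low genes come out too small, and were tested with limma and Benjamini-Hochberg adjustment over the 5615 genes.

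The tissue was fat by its defining markers: the summed scaled FPKM of 10 adipocyte markers was 1551 to 2159 in LFD, 1064 to 1710 in placebo and 1461 to 2040 in estradiol. From LFD to placebo 8 of these 10 markers fell and none rose, beside 22% of all tested genes that fell. All 10 macrophage markers rose, beside 21.3% that rose, their summed level going from 48 to 120 in LFD to 163 to 488 in placebo. With estradiol against placebo 6 adipocyte markers rose and none fell, beside 14.3% of tested genes that rose. In the same comparison 9 macrophage markers fell, beside 16% that fell, to a summed level of 72.2 to 171. Against LFD, 4 of 10 macrophage markers were higher with estradiol, beside 3.95% of tested genes, and 1 of 10 adipocyte markers was lower, beside 3.74%. Fewer fat cells and less RNA of these genes per fat cell cannot be told apart in tissue RNA, and the part of cell makeup in the results below was not tested.

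From LFD to placebo, most of the assembly genes fell. Gpam, Agpat2, Agpat3, Lpin1, Dgat1, Mogat1 and Pck1 were lower in placebo, 7 of 10 members, beside 22% of all tested genes that were lower and 21.3% that were higher. No member was higher, by limma at an adjusted p of 0.05 or at an unadjusted p of 0.05. Mogat1, Gpam and Lpin1 did not overlap between the groups, 3 of 10 beside 13% of tested genes with no overlap in this direction. The filter asked for a scaled FPKM of 1 in 5 libraries. Mogat1 reached it only in LFD mice 1, 2, 4 and 5 and estradiol mouse 4, and no placebo mouse was above 0.297. It could be tested mainly because it is high in LFD, so its place in the counts here and below is no independent evidence. The median difference of the members was -0.64, and that of all tested genes -0.01. Gpd1 at -0.49, Dgat2 at -0.23 and Aqp7 at -0.18 did not pass. Within lane 5, with 5 LFD and 3 placebo libraries, the count was again 7, with Dgat2 in (-0.41, limma adjusted p = 0.0426) and Agpat3 out (-0.40, adjusted p = 0.0603). Without the 3 libraries high in Ucp1 it was 8, with Gpd1 added (-0.51, adjusted p = 0.0284). The direction depends on the scaling: with FPKM as deposited, where the median tested gene was 0.77 higher in placebo, 1 member passed as lower, and only Pck1 and Mogat1 of the 10 stayed below 0, but 8 of 10 members still lay below that median, all but Dgat2 and Aqp7. With FPKM rescaled to a constant sum, where the median was 0.28 higher, 2 members passed as lower, all 10 lay below the median and only Dgat2 (0.21) and Aqp7 (0.20) above 0. Of the genes called, 49.2% of 2431 were higher in placebo with the scaling used, 99.4% of 3027 with FPKM as deposited and 91.6% of 2298 with a constant sum.

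From placebo to estradiol, the members split. Gpam, Pck1 and Mogat1 rose, 3 of 10 beside 14.3% of tested genes that were higher, and Gpd1 fell, 1 of 10 beside 16% that were lower. The fall of Gpd1 was known when the genes were chosen, so its count and tests are no independent evidence. Gpam and Mogat1 rose and Gpd1 fell with no overlap between the groups, which 10% of tested genes did in the upward and 11.2% in the downward direction. The members' median was 0.18, against 0.01 over all tested genes. The remaining 6, Agpat2, Agpat3, Lpin1, Dgat1, Dgat2 and Aqp7, did not pass. In a fit that also held lane, Gpam (1.33, adjusted p = 0.00205) and Gpd1 (-1, adjusted p = 0.0441) still passed, while Pck1 (1.08, adjusted p = 0.137) and Mogat1 (0.55, adjusted p = 0.0785) did not. Without the 3 libraries high in Ucp1, 5 members rose, Agpat3 (0.34, adjusted p = 0.00494) and Dgat1 (0.45, adjusted p = 0.00932) in addition, and Gpd1 fell by 0.55. Signs of the 4 called members were the same under every scaling tried, though with FPKM as deposited none passed limma (3 higher and 1 lower at an unadjusted p of 0.05). Of the genes called, 47.2% were higher with estradiol, against 4.71% with FPKM as deposited, where the median tested gene was at -0.27, and 31.4% with a constant sum.

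Between estradiol and LFD, which share their libraries with the comparisons above, Gpam was higher and Gpd1, Agpat2, Lpin1 and Mogat1 were lower. These are 1 of 10 beside 3.95% of tested genes and 4 of 10 beside 3.74%, with Gpd1, whose fall was known beforehand, among the 4. Gpd1, Agpat2 and Lpin1 did not overlap between the groups, 3 of 10 beside 3.85% in that direction. The members' median was -0.42 and that of all tested genes -0.00. LFD and estradiol lie on different lanes, so lane enters this comparison only through the placebo group; with lane as a term, Gpd1 (-1.63, adjusted p = 0.0449) and Lpin1 (-0.91, adjusted p = 0.0427) passed and the other 3 did not. With FPKM as deposited none passed limma (1 at an unadjusted p of 0.05), and Lpin1 alone of the 5 changed sign (0.12). Of the genes called, 51.4% were higher with estradiol, 100% with FPKM as deposited (median 0.49) and 95% with a constant sum (median 0.24).

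**Figure D1:**
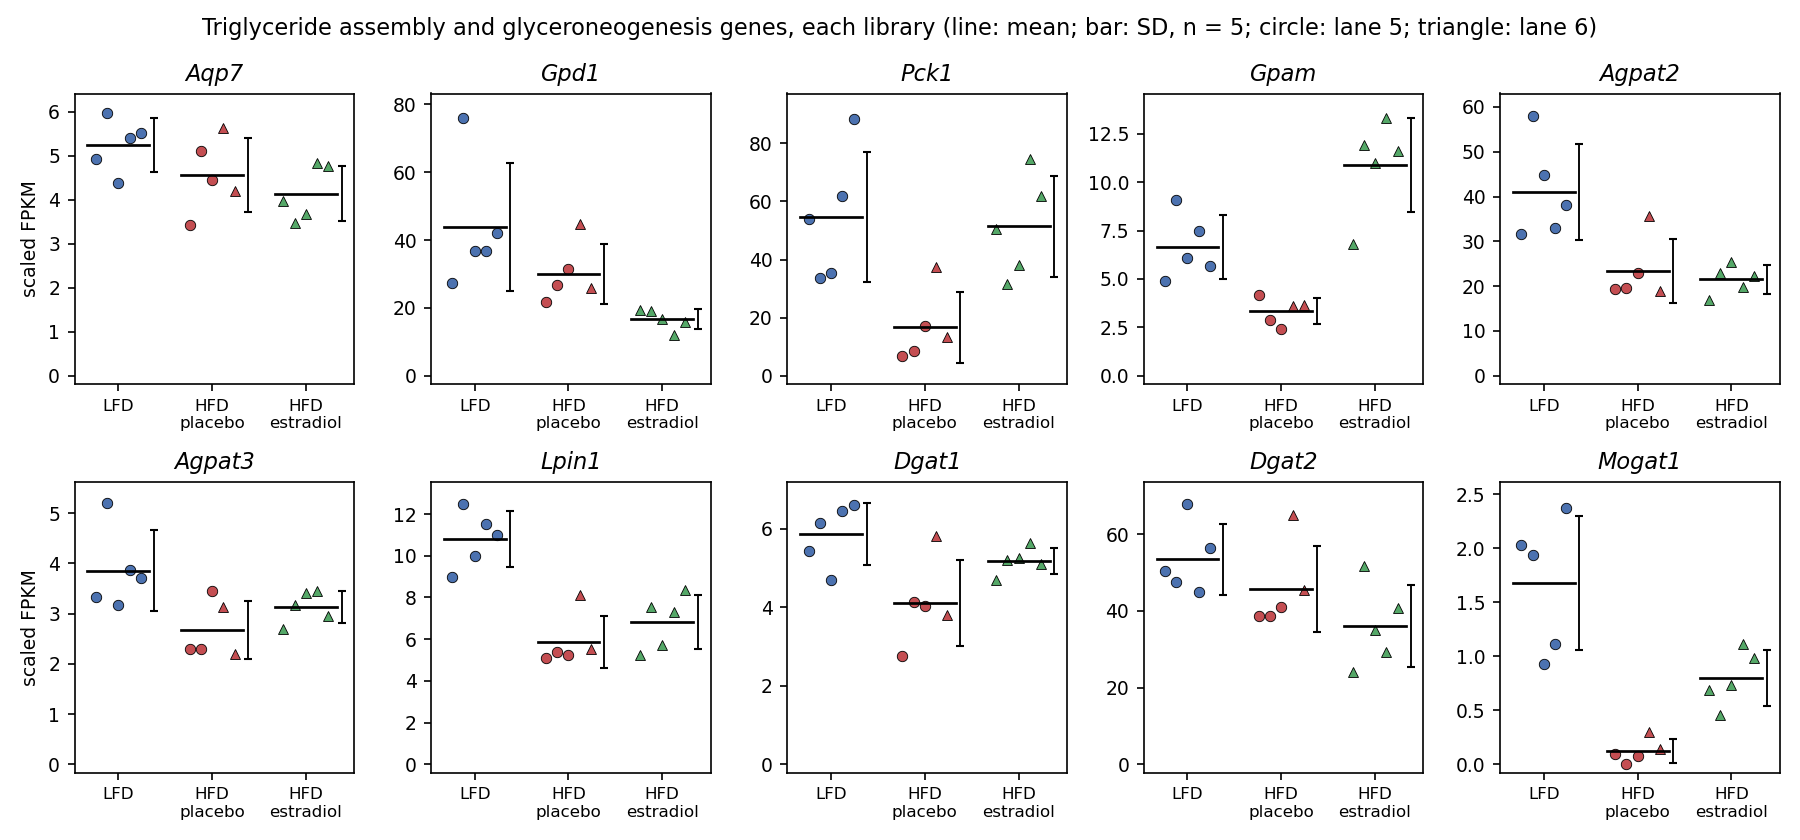
Scaled FPKM of the 10 members in each of 15 mice, 1 panel per gene, with LFD, HFD placebo and HFD estradiol on the horizontal axis, a line at the mean and a bar for the SD (n = 5). Circles are libraries of lane 5 and triangles of lane 6. Gpd1 has means of 43.8, 30.0 and 16.7 in the 3 groups, with overlap between the first pair, while Pck1 and Gpam are lowest in the placebo group.

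**Figure D2:**
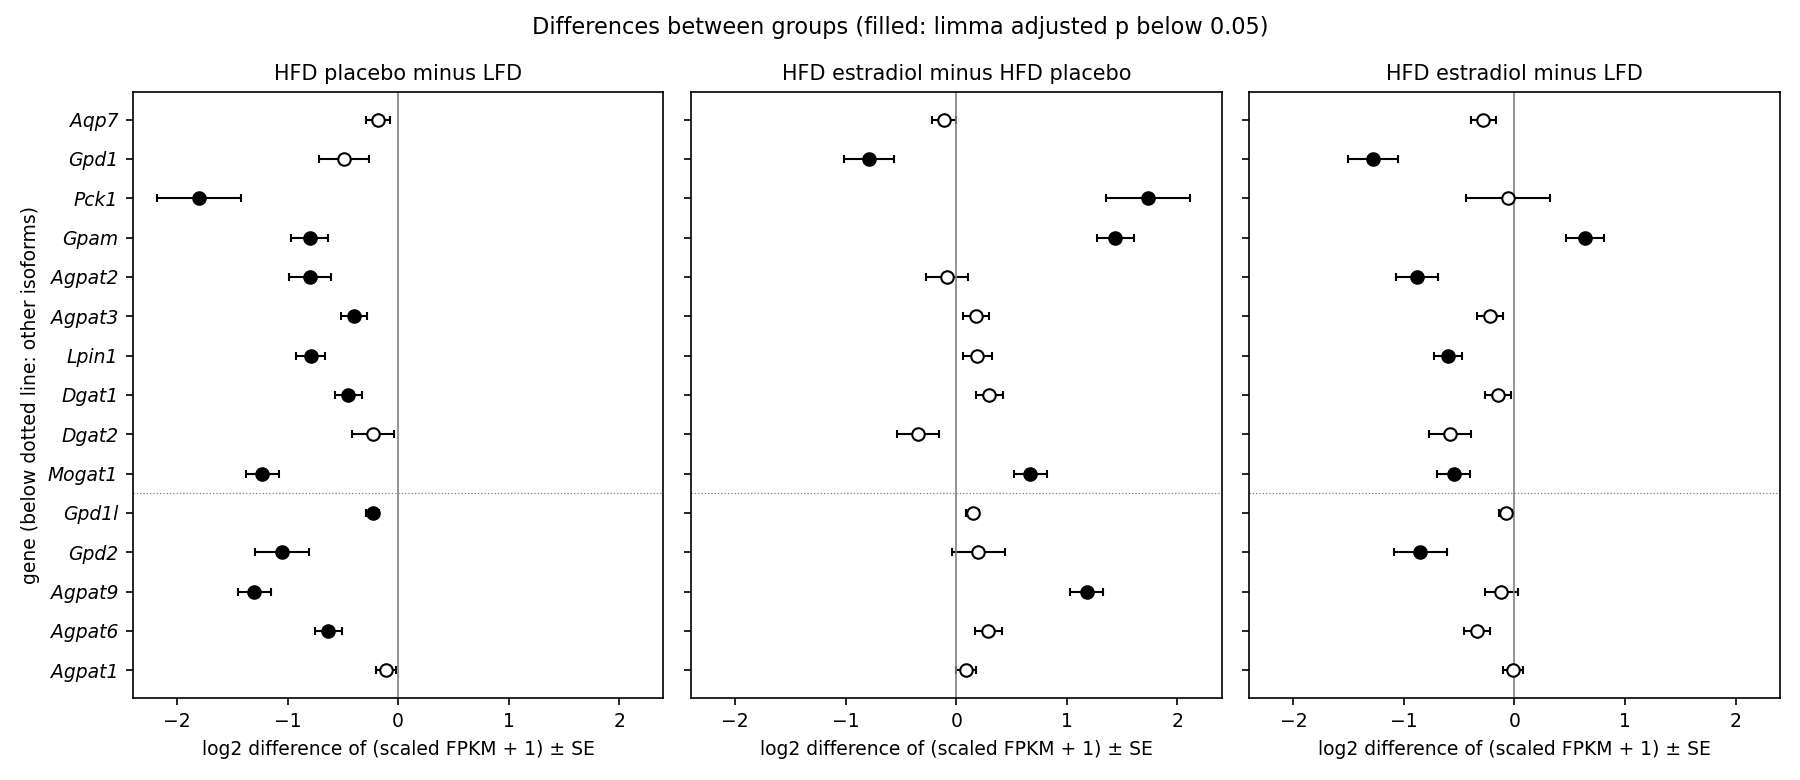
Difference on the log2(scaled FPKM + 1) scale with its SE for the 10 members and, below the dotted line, 5 other isoforms, 1 panel per comparison. Filled points have a limma adjusted p below 0.05. In the left panel all points lie below 0, and in the middle panel the filled points are Gpam, Pck1, Mogat1 and Agpat9 above 0 and Gpd1 below it.

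In glycerol supply, Gpd1 fell and Pck1 rose from placebo to estradiol, the first of which was known beforehand. Once lane entered the fit, the Pck1 difference was 1.08 (limma adjusted p = 0.137), short of the threshold. Gpd1 (chr15:99717515-99725005, plus strand, protein-coding) encodes the cytosolic enzyme that reduces dihydroxyacetone phosphate to glycerol 3-phosphate. It stood at 27.3, 76.0, 36.7, 36.8 and 42.2 in LFD mice 1 to 5, at 21.6, 26.6, 31.5, 44.6 and 25.8 in placebo mice and at 19.4, 19.2, 16.7, 12.1 and 15.9 in estradiol mice. Every estradiol mouse lay below every mouse of the other groups, the nearest being placebo mouse 1, while LFD and placebo overlapped. The mean fell 1.8-fold from placebo (30.0 ± 8.87, SD, n = 5) to estradiol (16.7 ± 2.97), by -0.79 ± 0.23 (SE) on the log2 scale (limma adjusted p = 0.0177). Against LFD (43.8 ± 18.8) the fall with estradiol was -1.28 (adjusted p = 0.00352). These p-values belong to a fall that was known when the genes were chosen, so they are no independent evidence for it. From LFD to placebo the difference was -0.49 (adjusted p = 0.105), so these neighbours in the order of levels did not differ beyond their spread. Leaving out estradiol mouse 4, the lowest, took the estradiol against placebo difference to -0.69 (adjusted p = 0.0517). Without LFD mouse 1 or without placebo mouse 4, the placebo against LFD difference passed, at -0.63 (adjusted p = 0.0402) and -0.64 (adjusted p = 0.0313).

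LFD mouse 2 and placebo mouse 4, the highest of their groups in Gpd1, were also the highest of their groups in Ucp1. Mitochondrial Gpd2, which oxidises glycerol 3-phosphate and is abundant in brown fat, reached 6.89 in LFD mouse 2 against 1.44 to 2.05 in the other LFD mice. None of the 4 tested brown fat markers passed limma in any of the 3 comparisons, nor at an unadjusted p of 0.05. With SEs from 0.55 (Cox7a1) to 1.08 (Ucp1), these tests could miss large differences. Mean Ucp1 was 8.33 in LFD, 8.07 in placebo and 1.46 in estradiol. Differences lay below 0 for all 4 markers in estradiol against LFD and for 3 of 4 in estradiol against placebo. Without the 3 libraries high in Ucp1, Gpd1 was lower with estradiol against placebo by -0.55 (limma adjusted p = 0.0178) and against LFD by -1.06 (adjusted p = 8.8e-04). These values describe the fall that was known beforehand.

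**Figure D3:**
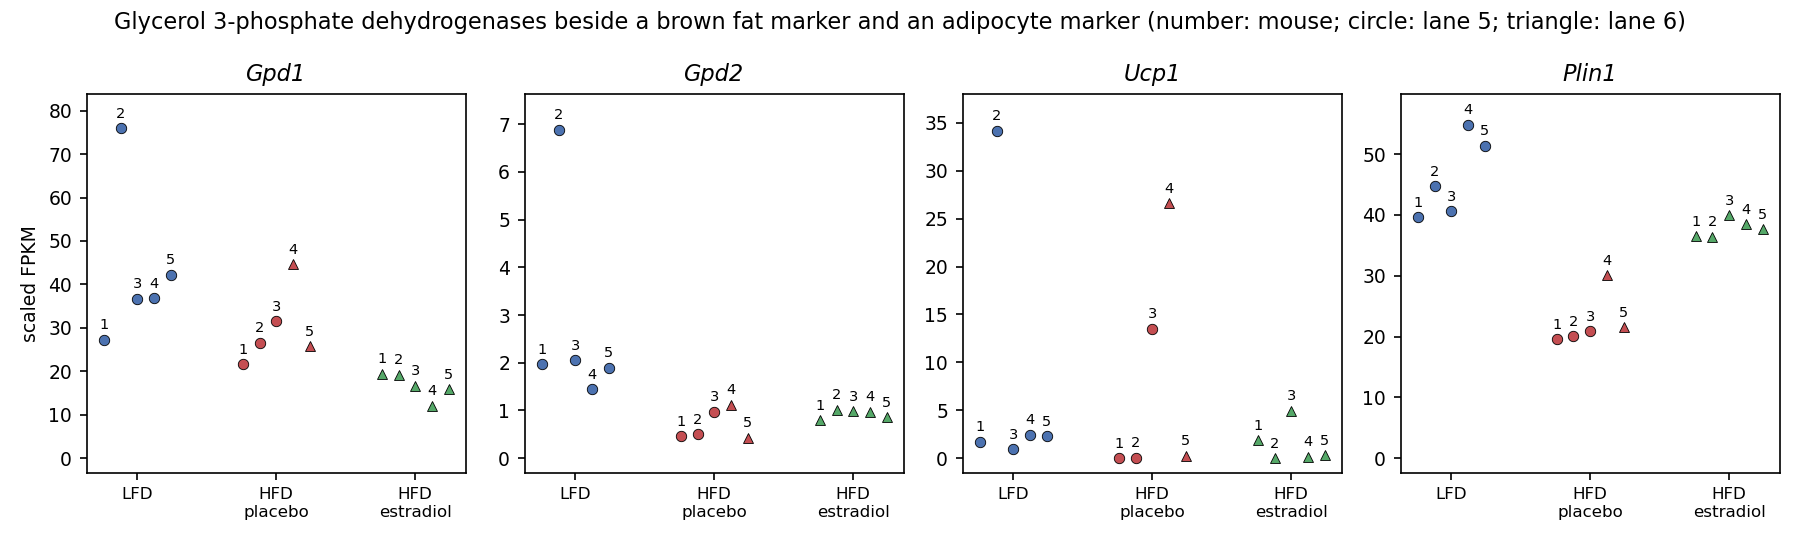
Scaled FPKM of Gpd1, Gpd2, the brown fat marker Ucp1 and the adipocyte marker Plin1 in each mouse, numbered within its group, circles for lane 5 and triangles for lane 6. LFD mouse 2 is the highest of all 15 in Gpd1 (76.0), Gpd2 (6.89) and Ucp1 (34.2), while Plin1 in placebo (19.6 to 30.1) lies below both other groups, and Gpd1 lies lowest in the 5 estradiol mice.

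Pck1 (chr2:173153048-173159273, plus strand), the cytosolic phosphoenolpyruvate carboxykinase that commits pyruvate carbon to glyceroneogenesis in fat, went the other way with estradiol. Its levels were 54.1, 33.7, 35.5, 61.9 and 88.3 in LFD, 6.84, 8.67, 17.1, 37.5 and 13.5 in placebo and 50.5, 31.5, 38.2, 74.6 and 62.0 in estradiol, for mice 1 to 5. Placebo mouse 4 reached into the range of both other groups, and the other 4 placebo mice lay below all 10 mice of those groups. The mean was 3.27-fold lower in placebo (16.7 ± 12.3) than in LFD (54.7 ± 22.3), a difference of -1.8 ± 0.38 (SE; limma adjusted p = 0.00125). It was 3.07-fold higher with estradiol (51.4 ± 17.5) than in placebo, by 1.73 ± 0.38 (adjusted p = 0.00245). Estradiol and LFD did not differ beyond their spread (-0.06 ± 0.38, adjusted p = 0.939). These groups lie on different lanes, and with lane as a term their difference was -1.15 (adjusted p = 0.293). The values thus do not show whether Pck1 returned to the LFD level. Within lane 6, where 2 placebo mice meet 5 estradiol mice, the difference of estradiol from placebo was 1.08 (adjusted p = 0.135).

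The ratio of 2 genes within a library does not depend on the scaling, and 4 ratios were compared over the 3 comparisons by exact two-sided permutation tests, 12 in all, whose smallest possible p is 0.0079. Since the fall of Gpd1 with estradiol was known when the genes were chosen, the ratios that hold Gpd1 are given for estradiol as values, without p-values. Their p-values were still counted in the adjustment over the 12 tests. This can make adjusted values of the other ratios smaller, so a pass of another ratio can rest on them. Gpd1 over Pck1 was 0.504, 2.26, 1.04, 0.595 and 0.478 in LFD, 3.17, 3.07, 1.84, 1.19 and 1.91 in placebo and 0.385, 0.608, 0.437, 0.162 and 0.257 in estradiol. Every placebo mouse lay above every estradiol mouse, and LFD overlapped both. The log2 ratio was lower with estradiol than in placebo by -2.64, and by -2.17 within lane 6. Estradiol against LFD gave -1.26. Placebo against LFD gave 1.38 (exact p = 0.048, adjusted over the 12 tests 0.071), which passed without LFD mouse 2 (1.76, adjusted exact p = 0.027).

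Gpd1 was also set against Plin1, the perilipin that coats the lipid droplet of fat cells, which itself fell from LFD to placebo (-1.02) and rose with estradiol (0.74). The geometric mean of Gpd1 over Plin1 was 0.898 in LFD, 1.31 in placebo and 0.435 in estradiol. Estradiol mice ran from 0.314 to 0.532, below all LFD mice (0.672 to 1.70) and all placebo mice (1.10 to 1.51). The difference in log2 ratio was -1.59 against placebo and -1.05 against LFD. Within lane 6 it was -1.62 against placebo. With each of the 10 adipocyte markers in turn as the denominator, the difference ran from -1.86 to -0.67 against placebo and from -1.63 to -0.71 against LFD. The sign was thus below 0 with every marker. No marker fell as far as Gpd1, the lowest being Cd36 against placebo (-0.15) and Lpl against LFD (-0.61). The sign was therefore bound to be below 0 and is no further evidence for a fall that was known beforehand. Placebo against LFD gave 0.55 (exact p = 0.071, adjusted 0.095), which passed without LFD mouse 2 (0.78, adjusted exact p = 0.019). Here the sign did depend on the marker: 8 of 10 gave a value above 0, up to 0.66 with Pnpla2, while Cd36 (-0.67) and Acsl1 (-0.51, adjusted exact p = 0.019), neither of which passed limma in any comparison, gave values below 0. The markers other than Plin1 were tried after seeing the data.

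**Figure D4:**
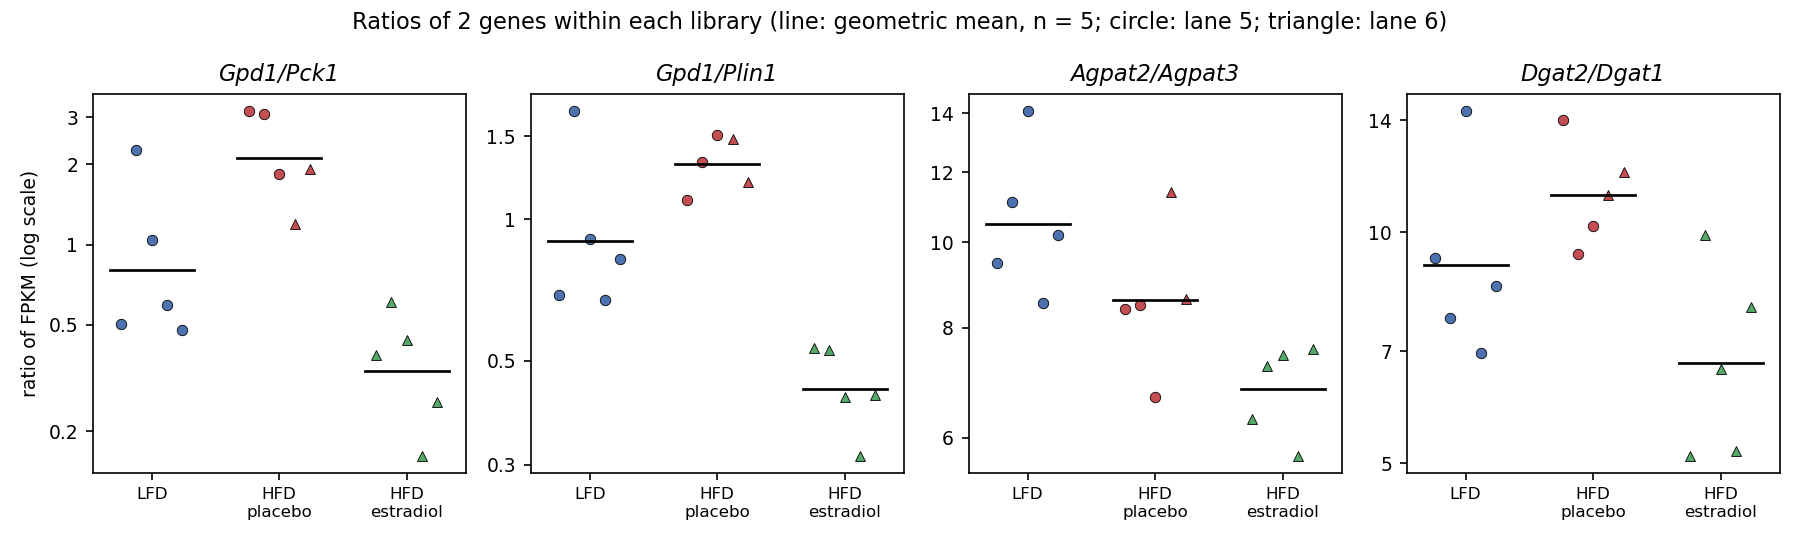
Ratios of FPKM of 2 genes within each library on a log axis, 1 panel per ratio, with a line at the geometric mean (n = 5), circles for lane 5 and triangles for lane 6. Gpd1/Pck1 and Gpd1/Plin1 have their lowest geometric means in estradiol, 0.336 and 0.435, and their highest in placebo, 2.10 and 1.31.

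Aqp7 (chr4:41033074-41048139, minus strand), the aquaglyceroporin that lets glycerol out of fat cells, was the least variable member. LFD mice had 4.92, 5.98, 4.39, 5.41 and 5.52, placebo mice 3.42, 5.11, 4.44, 5.63 and 4.19, and estradiol mice 3.97, 3.46, 3.67, 4.83 and 4.77. The groups overlapped throughout. The differences were -0.18 ± 0.11 for placebo against LFD (limma adjusted p = 0.223), -0.11 ± 0.11 for estradiol against placebo (adjusted p = 0.516) and -0.28 ± 0.11 for estradiol against LFD (adjusted p = 0.148).

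Gpam (chr19:55067268-55127238, minus strand) encodes the mitochondrial acyltransferase GPAT1, which adds the first fatty acid to glycerol 3-phosphate. Its levels in mice 1 to 5 were 4.92, 9.07, 6.07, 7.48 and 5.67 in LFD, 4.16, 2.87, 2.42, 3.61 and 3.67 in placebo, and 6.82, 11.9, 11, 13.3 and 11.6 in estradiol. All placebo mice lay below all others, and 4 of 5 estradiol mice lay above every LFD mouse. From LFD (6.64 ± 1.65) to placebo (3.35 ± 0.693) the mean fell 1.98-fold, by -0.80 ± 0.17 (SE; limma adjusted p = 0.00133). With estradiol (10.9 ± 2.44) it was 3.26-fold above placebo, by 1.44 ± 0.17 (adjusted p = 2.0e-05). It was also 1.64-fold above LFD (0.64 ± 0.17, adjusted p = 0.0321), a call lost when any estradiol mouse other than mouse 1, or LFD mouse 1, 3 or 5, was left out (adjusted p of at most 0.0792), without a filter (adjusted p = 0.0781) and with lane as a term (0.45, adjusted p = 0.431).

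The other glycerol 3-phosphate acyltransferases showed part of the same pattern. Agpat9, the older symbol of Gpat3, an enzyme of the endoplasmic reticulum and a main form in fat, had 6.47, 6.44, 5.16, 7.23 and 7.22 in LFD, 1.60, 1.43, 2.07, 3.58 and 1.86 in placebo and 4.43, 6.42, 5.33, 6.78 and 6.69 in estradiol. Placebo lay below both other groups with no overlap, and LFD and estradiol overlapped. It fell from LFD to placebo by -1.30 ± 0.15 (limma adjusted p = 7.4e-06) and rose with estradiol by 1.18 ± 0.15 (adjusted p = 3.8e-05), also with lane as a term (0.92, adjusted p = 0.00468). Agpat6, the older symbol of Gpat4, fell from LFD (3.37 ± 0.689) to placebo (1.83 ± 0.451) by -0.63 (adjusted p = 4.2e-04), and its difference with estradiol was 0.29 (adjusted p = 0.0695), which passed without placebo mouse 4 (0.37, adjusted p = 0.0137). Gpat2 was at 0.0722 or less in every library and was not tested.

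Agpat2 (chr2:26593057-26604417, minus strand), the acyltransferase that makes phosphatidic acid and whose loss causes lipodystrophy, was lower under the high-fat diet with either pellet. LFD mice had 31.7, 57.9, 44.7, 33.0 and 38.1, placebo mice 19.3, 19.5, 23, 35.7 and 18.9, and estradiol mice 17.0, 22.9, 25.5, 19.8 and 22.3. Estradiol mice lay below all LFD mice, and placebo mouse 4 alone of its group reached into the LFD range. The fall was -0.80 ± 0.19 from LFD to placebo (limma adjusted p = 0.00272) and -0.88 ± 0.19 from LFD to estradiol (adjusted p = 0.00938; -1.21 with lane as a term, adjusted p = 0.0544). Estradiol and placebo did not differ beyond their spread (-0.08 ± 0.19, adjusted p = 0.787), and the sign changed without placebo mouse 4 (0.08).

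Agpat3 (chr10:78269178-78352489, minus strand), a lower-level acyltransferase of the same reaction, lay between 3.17 and 5.2 in LFD mice, between 2.19 and 3.45 in placebo mice and between 2.70 and 3.45 in estradiol mice, with overlap between all groups. It fell from LFD to placebo by -0.40 ± 0.12 (limma adjusted p = 0.0102). With estradiol it differed from placebo by 0.18 ± 0.12 (adjusted p = 0.257) and from LFD by -0.22 ± 0.12 (adjusted p = 0.285). Per unit of length Agpat2 stood above Agpat3 by a geometric mean of 10.5-fold in LFD, 8.59-fold in placebo and 6.82-fold in estradiol. The ratio was lower in estradiol than in LFD by -0.63 on the log2 scale (exact permutation p = 0.0079, adjusted 0.024), with no overlap between 5.73 to 7.57 and 8.54 to 14.1. The adjusted value counts the Gpd1 ratios among the 12 tests and is smaller for it. Estradiol against placebo gave -0.33 (exact p = 0.04, adjusted 0.068) and passed without placebo mouse 3 (-0.42, adjusted exact p = 0.019). Placebo against LFD gave -0.30 (exact p = 0.13, adjusted 0.16) and passed without placebo mouse 4 (-0.40, adjusted exact p = 0.048). Agpat1 did not pass in any comparison, with -0.11 for placebo against LFD, 0.09 for estradiol against placebo and -0.01 for estradiol against LFD. Agpat4 and Agpat5, at 0.222 to 0.769 and 0.318 to 0.611, were not tested.

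Lpin1 (chr12:16535669-16610966, minus strand), the phosphatidic acid phosphatase of fat that is needed for fat cells to form, had 8.96, 12.5, 10.0, 11.5 and 11 in LFD, 5.09, 5.39, 5.26, 8.10 and 5.54 in placebo and 5.22, 7.55, 5.74, 7.28 and 8.37 in estradiol. All LFD mice lay above all mice on the high-fat diet, whichever the pellet. The mean fell 1.84-fold from LFD to placebo (-0.79 ± 0.13, limma adjusted p = 2.0e-04) and 1.58-fold from LFD to estradiol (-0.60 ± 0.13, adjusted p = 0.0124). Estradiol stood 0.19 ± 0.13 above placebo (adjusted p = 0.315), which did not pass, and placebo mouse 4 was the highest of its group. Lpin2 and Lpin3 stayed at 0.725 and 0.389 or less in every library.

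The last step is shared by a pair of unrelated enzymes. Dgat1 (chr15:76502015-76511953, minus strand) re-esterifies fatty acids from broken-down fat among other sources, and stood at 5.45, 6.14, 4.71, 6.45 and 6.62 in LFD, 2.76, 4.13, 4.03, 5.81 and 3.80 in placebo and 4.70, 5.22, 5.27, 5.63 and 5.11 in estradiol. Of the placebo mice, 4 lay below all others and mouse 4 lay among them. The fall from LFD to placebo was -0.45 ± 0.12 (limma adjusted p = 0.00859). Estradiol differed from placebo by 0.30 ± 0.12 (adjusted p = 0.0801), which passed without placebo mouse 4 (0.41, adjusted p = 0.00702), and from LFD by -0.15 ± 0.12 (adjusted p = 0.536).

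Dgat2 (chr7:99153658-99182719, minus strand), linked to the use of newly made fatty acids, was among the most abundant members in every group. It had 50.5, 47.5, 67.9, 44.9 and 56.4 in LFD, 38.6, 38.7, 41.0, 64.9 and 45.4 in placebo and 24, 51.7, 34.9, 29.2 and 40.8 in estradiol. The groups overlapped in each comparison. The differences were -0.23 ± 0.19 (limma adjusted p = 0.351), -0.35 ± 0.19 (adjusted p = 0.187) and, for estradiol against LFD, -0.58 ± 0.19 (adjusted p = 0.0808), which passed without estradiol mouse 2 (-0.72, adjusted p = 0.0331). Dgat2 over Dgat1 had a geometric mean of 9.07 in LFD, 11.2 in placebo and 6.75 in estradiol. The ratio was lower with estradiol than in placebo by -0.73 on the log2 scale (exact permutation p = 0.016, adjusted 0.038; -0.78 within lane 6), with 1 estradiol mouse, at 9.92, inside the placebo range of 9.37 to 14. This call was lost without placebo mouse 1 or 5 (adjusted exact p = 0.076 for each), and its adjusted value counts the Gpd1 ratios among the 12 tests. Placebo against LFD (0.31, exact p = 0.17, adjusted 0.17) and estradiol against LFD (-0.43, exact p = 0.14, adjusted 0.16) did not pass, though the first did without LFD mouse 3 (0.48, adjusted exact p = 0.032).

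Mogat1 (chr1:78510991-78538173, plus strand), which makes diacylglycerol from monoacylglycerol, was the lowest member, and by the ratio of means it had the largest fold of the members in both comparisons with placebo, where 1 placebo library is listed at 0. On the tested log2 scale, which makes changes of low genes smaller, Pck1 had the larger difference in both. LFD mice had 2.03, 1.94, 0.927, 1.11 and 2.37, placebo mice 0.0989, 0, 0.0729, 0.297 and 0.141, and estradiol mice 0.692, 0.456, 0.738, 1.11 and 0.987. Placebo lay below both other groups with no overlap, and estradiol overlapped LFD at the lower end. The mean was 13.7-fold lower in placebo (0.122 ± 0.110) than in LFD (1.68 ± 0.622), and 6.54-fold higher in estradiol (0.797 ± 0.258) than in placebo. On the log2 scale these were -1.23 ± 0.15 (limma adjusted p = 8.9e-06) and 0.67 ± 0.15 (adjusted p = 0.00239), and -3.06 and 2.11 with 0.1 added in place of 1. Estradiol stayed below LFD by -0.55 ± 0.15 (adjusted p = 0.0306), but this call was lost under 13 of 21 alternatives. Among them were 0.1 added in place of 1 (-0.96, adjusted p = 0.133), lane as a term (-0.76, adjusted p = 0.12), a constant sum (-0.35, adjusted p = 0.0927), no filter (adjusted p = 0.0677) and a fit on the 2 groups alone (adjusted p = 0.0526). The others were FPKM as deposited (-0.12), the fit without the libraries high in Ucp1 (-0.51, adjusted p = 0.0711) and leaving out LFD mouse 1, 2 or 5 or estradiol mouse 1, 2 or 3 (adjusted p of at most 0.0804). Mogat2 ran from 0.0944 to 0.475 and was not tested.

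In order of scaled FPKM, which is per length, Pck1 led in LFD (54.7) and estradiol (51.4) and was the fourth in placebo (16.7), where Dgat2 led (45.7). Gpd1 went from the third place in LFD to the second in placebo and the fourth in estradiol. Gpam went from the sixth in LFD to the eighth in placebo and the fifth in estradiol. Mogat1 was last in every group.

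Around the members, 16 other isoforms were looked up and 5 could be tested. From LFD to placebo 4 of these 5 fell (Gpd1l, Gpd2, Agpat9 and Agpat6), beside 22% of all tested genes, and from placebo to estradiol Agpat9 rose, 1 of 5 beside 14.3%. Gpd2 passed the filter through its level in LFD. Outside LFD only placebo mouse 4 (1.12) and estradiol mouse 2 (1.02) reached a scaled FPKM of 1, so its falls from LFD are no independent evidence. From LFD to estradiol Gpd2 fell, 1 of 5 beside 3.74%, by -0.85 (limma adjusted p = 0.0382). That call was lost under 10 of 21 alternatives, among them lane as a term (-0.94, adjusted p = 0.229), no filter (adjusted p = 0.0941), a fit on the 2 groups alone (adjusted p = 0.0631) and leaving out any 1 estradiol mouse (adjusted p of 0.0657 to 0.0789). Without the 3 libraries high in Ucp1 it was smaller but passed (-0.55, adjusted p = 5.2e-04). Gpd2 had fallen from LFD to placebo by -1.05 ± 0.24 (adjusted p = 0.00194), and without the 3 libraries high in Ucp1 by -0.95 (adjusted p = 2.4e-06). Its difference of estradiol from placebo was 0.20 (adjusted p = 0.56), and 0.39 (adjusted p = 0.00152) without those libraries. Gpd1l, a relative of Gpd1, fell from LFD to placebo by -0.23 ± 0.06 (adjusted p = 0.00371) and differed by 0.15 (adjusted p = 0.0578) with estradiol, which passed without estradiol mouse 3 (0.18, adjusted p = 0.024) or 5 (0.17, adjusted p = 0.0364). The glycerol kinase gene Gyk, now named Gk, which would re-use free glycerol, was below the tested level at 0.336 ± 0.233 in LFD, 0.757 ± 0.206 in placebo and 0.294 ± 0.103 in estradiol. Pck2 stayed between 0.309 and 0.768. The other glycerol channels Aqp3, Aqp9 and Aqp11 were at 0.682 or less in every library.

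Of 9 genes that carry carbon from pyruvate to triose phosphate, 2 rose and 3 fell from LFD to placebo, beside 21.3% of all tested genes that rose and 22% that fell, with a median difference of -0.08. Pcx, the pyruvate carboxylase that opens the route to Pck1, fell from 29.7 ± 5.03 to 13.7 ± 2.95, with no overlap, by -1.07 ± 0.16 (limma adjusted p = 5.2e-05). The malate dehydrogenases Mdh1 (-0.46, adjusted p = 0.00377) and Mdh2 (-0.40, adjusted p = 0.0206) fell, and the glycolytic enzymes Tpi1 (0.48, adjusted p = 0.0116) and Pgk1 (0.32, adjusted p = 0.0356) rose. With estradiol against placebo Pgk1 (-0.39, adjusted p = 0.0204) and Pgam1 (-0.33, adjusted p = 0.0455) fell, 2 of 9 beside 16% of tested genes, and none of the 9 rose, with Pcx at 0.42 (adjusted p = 0.0502). From LFD to estradiol Pcx (-0.65, adjusted p = 0.0178) and Mdh1 (-0.38, adjusted p = 0.0499) were lower, 2 of 9 beside 3.74%.

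Of 12 regulators of these genes 8 were tested. From LFD to placebo 7 fell and none rose, beside 22% of all tested genes that fell, and from placebo to estradiol 6 rose and none fell, beside 14.3% that rose. The medians were -0.62 and 0.46, against -0.01 and 0.01 over all tested genes. None passed between estradiol and LFD by limma (2 at an unadjusted p of 0.05), with a median of -0.08 and 7 of 8 below 0. The glucocorticoid receptor gene Nr3c1 had 4.86 ± 0.595 in LFD, 3.04 ± 0.188 in placebo and 4.60 ± 0.354 in estradiol, with differences of -0.53 (limma adjusted p = 3.6e-05) and 0.47 (adjusted p = 1.9e-04). Foxo1, a forkhead factor under insulin control, had 1.71 ± 0.201, 1.03 ± 0.132 and 1.68 ± 0.127, with -0.42 (adjusted p = 7.3e-05) and 0.41 (adjusted p = 1.8e-04). Both were lower in every placebo mouse than in any other. Srebf1, the sterol response factor of lipid synthesis, fell from LFD to placebo by -0.88 (adjusted p = 7.6e-05). Cebpa, a factor of mature fat cells, fell by -0.70 (adjusted p = 3.6e-04) and rose with estradiol by 0.56 (adjusted p = 0.0031). Mlxipl, which encodes the carbohydrate response factor ChREBP, rose with estradiol by 0.76 (adjusted p = 0.00207).

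The gene closest to each member over the 15 libraries was taken as that with the smallest root mean square difference of log2 values, each gene centred on its own mean. For Gpd1, whose own root mean square deviation was 0.64, the closest 5 were Parm1 (0.348), Slc25a1 (0.357), 1700037H04Rik (0.363), Agpat2 (0.372) and H2-Q10 (0.388). H2-Q10 belongs to a family of near-identical genes, so its level is uncertain. Slc25a1, the mitochondrial citrate carrier, stood at 19.6 ± 7.11 in LFD, 11 ± 2.02 in placebo and 9.79 ± 1.62 in estradiol, and was also the closest to Agpat2 (0.157). The insulin receptor substrate gene Irs1 was the closest to Gpam (0.183), at 2.07 ± 0.329, 0.687 ± 0.107 and 3.86 ± 1.04. Ces1d, a lipase of fat cells, was the closest to Pck1 (0.412), at 41.0 ± 9.26, 11.4 ± 6.19 and 33.0 ± 6.63. For Mogat1 it was Sfxn1 (0.17), for Lpin1 Apmap (0.138), for Dgat1 1600014C10Rik (0.0988), for Dgat2 Cyb5b (0.196), for Agpat3 5430417L22Rik (0.0805) and for Aqp7 Arsb (0.121).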

How the data were processed

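Stranded Illumina libraries were made from total RNA (integrity number above 7) after removal of ribosomal RNA, per the labels' protocols. STAR, Cufflinks and the genome mm10 are named in the submitters' processing notes without versions; the annotation and the treatment of reads shared by similar genes are not given in the sources used here. FPKM values were deposited by the authors per gene symbol, 1 file per library, with no counts. The 10 genes and the lists around them (other isoforms, the pyruvate route, the phospholipid branch, regulators and cell type markers) were chosen with earlier results of these data known.

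Each library was divided by a median-of-ratios factor over 5874 genes above 0 in all libraries with a mean FPKM of at least 1. A gene was kept if 5 or more libraries reached a scaled FPKM of 1, which left 5615, tested as log2(scaled FPKM + 1) with limma 3.58.1 in R 4.3.3 (trend, robust moderation) on all 15 libraries, with group as the only factor and an adjusted p (Benjamini-Hochberg) of 0.05 as the threshold. All members passed the filter, so the exact tests planned for members below it were not needed. Ratios used an exact permutation test over the 252 splits of 5 against 5. Named genes were all members, all other isoforms, up to 4 genes per further list with the smallest adjusted p in each of the placebo comparisons, and the genes closest in pattern. The replicate numbers name different mice, so no pairing was used.

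Sequencing lanes come from the deposited files' names. Data were simulated for 5615 genes varying independently, from each gene's mean over all libraries and its spread within the groups. Changes were added to the placebo group, only in genes above a set mean level that Mogat1 does not reach. Between placebo and LFD the procedure recovered 76% of changes of 0.5 and 93% of changes of 1 on the log2 scale, with 5.06% of calls false. These rates do not cover low genes. The added changes touched a small share of the genes, up or down at random, and the simulated library factors were unrelated to group. The scaling used thus suited the simulated data by construction. In the real comparison 2431 genes were called and the direction depended on the scaling, so the 5.06% does not carry over to the real calls. Depth was estimated from the spacing of low values: 59.4% to 70.7% of them lay within 2% of a whole multiple of the estimated unit, up to 4. No interval can be given for single values. Gene positions are from GENCODE on GRCm38, the assembly of mm10. Alternatives tried were other scalings, pseudocounts and filters, fits on 2 groups or without moderation, lane, the replicate block, and leaving out libraries; leaving out the 3 libraries high in Ucp1 and setting Gpd1 against adipocyte markers other than Plin1 were chosen after seeing the data.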

Additional observations from a re-analysis of the deposited data

Results flagged for a closer look

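In groups of 5, a highest or lowest mouse was picked out where its gap to the nearest other mouse, divided by the range of the group, was above 0.71. Of 57 groups checked, 7 met this, where chance gives about 1 in 20 for independent groups of normally spread values. The groups checked share the same 15 libraries, and the ratios share genes with them. They are not independent, so the 7 cannot be weighed against 1 in 20. Placebo mouse 4 stood apart in Agpat2, at 35.7 against 18.9 to 23 in the other placebo mice, in Lpin1, at 8.10 against 5.09 to 5.54, and in Dgat2, at 64.9 against 38.6 to 45.4. In Pck1 and Dgat1 it was also the highest of its group, at 37.5 and 5.81. It had a scaling factor of 3.23, the largest of all libraries, and Ucp1 at 26.6. LFD mouse 2 stood apart in Gpd2, at 6.89 against 1.44 to 2.05, in the ratio Gpd1 over Plin1, at 1.70 against 0.672 to 0.905, and as the lowest in Gpd1l, at 1.23 against 1.36 to 1.40. It had Ucp1 at 34.2. Placebo mouse 3 was the lowest of its group in Gpd1l, at 0.872 against 1.02 to 1.07. What sets these mice apart was not tested.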

How the results depend on the processing

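With FPKM as deposited, 276 genes passed between estradiol and placebo and 39 between estradiol and LFD; 1 member was lower in placebo than in LFD, and 0 members were higher or lower in the comparisons with estradiol. The placebo against LFD difference changed sign in Gpd1 (0.64), Gpam (0.19), Agpat2 (0.33), Agpat3 (0.53), Lpin1 (0.27), Dgat1 (0.56), Dgat2 (0.90), Aqp7 (0.81), Gpd1l (0.45), Agpat6 (0.28) and Agpat1 (0.77). Estradiol against placebo changed sign in Agpat3 (-0.13), Lpin1 (-0.15), Dgat1 (-0.03), Gpd1l (-0.09), Gpd2 (-0.03), Agpat6 (-0.02) and Agpat1 (-0.21). Estradiol against LFD changed sign in Agpat3 (0.40), Lpin1 (0.12), Dgat1 (0.53), Dgat2 (0.21), Pck1 (0.72), Aqp7 (0.37), Gpd1l (0.37), Agpat9 (0.56), Agpat6 (0.26) and Agpat1 (0.57). With a constant sum, 831 genes passed between estradiol and placebo, 2 members were lower in placebo than in LFD and 1 was lower in estradiol than in LFD. There the placebo against LFD sign changed in Dgat2 (0.21), Aqp7 (0.20), Gpd1l (0.02) and Agpat1 (0.23), and the estradiol against LFD sign in Agpat3 (0.09), Dgat1 (0.19), Pck1 (0.32), Aqp7 (0.04), Gpd1l (0.14), Agpat9 (0.21) and Agpat1 (0.28). The median of all tested genes moved too, as given in the report, but members moved by other amounts: with FPKM as deposited, the placebo against LFD difference relative to that median went from -0.47 to -0.12 in Gpd1 and from -0.22 to 0.13 in Dgat2. The cause was not tested.

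Without a filter, 3908 genes passed between placebo and LFD and 2606 between estradiol and placebo, of 18880 tested, and 0 members were higher in estradiol than in LFD. With lane as a term, 711 genes and 1 higher member passed between estradiol and placebo, and 162 genes, 0 higher and 2 lower members between estradiol and LFD, where Agpat1 was at 0.04. Within lane 6, 681 genes and 1 higher member passed between estradiol and placebo. Without the 3 libraries high in Ucp1, 1723 genes passed between estradiol and placebo. There 5 members were higher with estradiol than in placebo, Agpat2 was at 0.14, and Agpat1 was at 0.07 between estradiol and LFD. The cause of these changes was not tested, except that fewer libraries or more genes enter the fit.

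Leaving out each mouse in turn, members lower with estradiol than in placebo ran from 0 to 1 (0 without estradiol mouse 4), and members higher than in LFD from 0 to 1. The same steps took Agpat2 between estradiol and placebo from -0.14 to 0.08, and between estradiol and LFD Agpat1 from -0.06 to 0.07 and Pck1 from -0.21 to 0.13. Values of log2 ratios ran from 1.20 to 1.76 for Gpd1/Pck1, 0.44 to 0.78 for Gpd1/Plin1, 0.21 to 0.48 for Dgat2/Dgat1 and -0.40 to -0.19 for Agpat2/Agpat3 between placebo and LFD. Between estradiol and placebo they ran from -0.87 to -0.64 for Dgat2/Dgat1 and from -0.42 to -0.23 for Agpat2/Agpat3, and Gpd1/Pck1 ran from -1.47 to -0.89 between estradiol and LFD. With Cd36 or Acsl1 in place of Plin1, the Gpd1 ratio between placebo and LFD changed sign (-0.67 and -0.51). Between estradiol and LFD, only Lpl (-0.71) gave a smaller difference than Plin1 (-1.05). Between estradiol and placebo, Cd36 (-0.67), Lpl (-0.87), Acsl1 (-0.93), Cidec (-1.22), Fabp4 (-1.34) and Lipe (-1.55) gave smaller differences than Plin1 (-1.59). Adipoq, Plin4 and Pnpla2 gave larger ones. Of 1014 values recomputed for single genes, 890 kept their direction and side of the threshold. A further 49 changed sign, some of which also no longer passed. Of those that kept their sign, 58 no longer passed and 17 newly passed.

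With the replicate number as a block, 2427, 1685 and 431 genes passed in the 3 comparisons, 7 members fell from LFD to placebo, and Dgat1 also rose with estradiol (0.30, limma adjusted p = 0.0428). Correlations between mice of the same number ran from -0.210 to 0.360, and not every mouse correlated best with its own number. Mogat1 has no value under the filter on 10 libraries, which it fails. Depth limits the low members most: Mogat1 in placebo rests on values at or below 0.297.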

Other observations

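Phosphatidic acid and diacylglycerol, the products of Agpat2, Agpat3 and Lpin1, also feed the making of phospholipids. Of 19 genes of that branch 11 were tested. From LFD to placebo 4 rose and 5 fell, beside 21.3% and 22% of all tested genes, with a median difference of 0.01. Chpt1, a choline phosphotransferase, fell from 57.0 ± 7.64 to 25.6 ± 4.96 (-1.13, limma adjusted p = 1.8e-05), and Crls1, the cardiolipin synthase, fell by -0.84 (adjusted p = 3.9e-04). Dgkz, a kinase that turns diacylglycerol back into phosphatidic acid, rose from 1.11 ± 0.230 to 2.21 ± 0.367 (0.60, adjusted p = 1.8e-04), and Pcyt1a, of phosphatidylcholine synthesis, rose by 0.33 (adjusted p = 0.00113). The others were Cdipt (0.30) and Pisd (0.27) among those that rose, and Pcyt2 (-0.32), Cept1 (-0.24) and Dgkd (-0.25) among those that fell; Pisd, Pcyt2, Cept1 and Dgkd were named after their values were seen.

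With estradiol against placebo Crls1 rose by 0.66 (limma adjusted p = 0.0038), and Pcyt1a (-0.29, adjusted p = 0.00359) and Dgkz (-0.47, adjusted p = 0.00196) fell, 1 of 11 beside 14.3% of tested genes that rose and 2 of 11 beside 16% that fell. From LFD to estradiol Chpt1 alone of the 11 passed, beside 3.74% of tested genes that were lower, at -0.80 (adjusted p = 0.00348), with 32.5 ± 5.73 in estradiol and no overlap with LFD.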
